A study of Mus musculus with 12 samples.

Results

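The transcripts described here encode the enzymes and transporters that carry glucose through glycolysis and the pentose phosphate pathway, with lactate dehydrogenase, the lactate transporters and the gate into the mitochondrion. A list of 36 mouse genes was drawn up by function, and a gene was measured when a probe named for it was detected (p under 0.01) on 3 or more of the 12 arrays. By that rule 27 genes were measured, on 41 probes, out of 10043 genes and 18185 probes that passed the same rule in all. No probe in the annotation used was named for Hk2, Gpi1, Eno1, Slc16a1, G6pdx or Pgd, so these are not analysed here. Pfkfb3, Pgam2 and Slc16a3 had a named probe, and none of their probes passed. G6pdx and Pgd of the pentose phosphate pathway and the main enolase of most tissues (Eno1) are therefore outside the values below.

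Expression was read on Illumina bead arrays in 4 groups of 3 mouse samples, all with the strain label E14Tg2A (129). Induced pluripotent stem (iPS) cells had been derived with mouse Nanog (mNanog iPS) or human Nanog (hNanog iPS), and were set against embryonic stem (ES) cells and against neural stem (NS) cells null for Nanog. The iPS and ES cells grew in N2B27 medium with LIF, 3 µM CHIR99021 (a GSK3 inhibitor) and 1 µM PD0325901 (a MEK inhibitor). The sources used here do not give how the NS cells were grown, whether the iPS cells carry the Nanog deletion, the promoter that drove the added Nanog or the number of clones. In comparisons with NS, the medium and the kind of cell cannot be told apart, nor can the form of Nanog and the clone between the iPS groups. Whether the replicates came from separate cultures is not stated in the labels, so the p-values reflect no more than the spread among these samples, which may be technical.

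Glucose enters the cell through facilitative transporters, is trapped by hexokinase, and is committed to glycolysis by phosphofructokinase. Aldolase then splits the hexose, and the triose steps lead to pyruvate, which lactate dehydrogenase reduces to lactate unless the pyruvate dehydrogenase complex passes it to the mitochondrion. The pentose phosphate pathway leaves at glucose 6-phosphate to make NADPH and ribose, and transketolase and transaldolase return its carbon to glycolysis. Many steps are encoded by several genes for isozymes with different tissue patterns: Aldoc and Eno2 are the aldolase and enolase best known from the brain, and Eno3 the enolase of muscle. Mouse ES cells are known for a high rate of both glycolysis and respiration.

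The labelled cell types were read against their markers first. All 8 pluripotency markers tested, Pou5f1 and Zfp42 among them, were detected on every iPS and ES array, and 5 of the 8 on no NS array. The other 3 (Esrrb, Klf4 and Dppa5a) were detected on every NS array. All 8 neural stem cell markers were detected on every NS array, and 6, 7 and 5 of them on no array of mNanog iPS, hNanog iPS and ES. Of 5 measured neuron markers, 4 were detected on every NS array and 2 on every array of each other group. The log2 of their summed signal was 12.28 to 12.34 in NS and 10.73 to 10.97 elsewhere. By mean signal, 6 arrays were brighter (470.3 to 561.9) and 6 dimmer (317.5 to 332.2), and each group held both kinds. NS replicate 2 was the only dimmer NS array, and it gave the lowest NS value for 18 of the 27 genes and the highest for 4. Deviations from the group means correlated at 0.0839 to 0.578 between arrays of different groups and the same brightness, and at -0.533 to -0.0633 where brightness differed. Results within the brighter or the dimmer arrays, or with brightness as a block, are given where they change a call; there a group may hold 1 array, which is assumed to vary like the others.

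A level below is the log2 of a background-corrected intensity normalized between arrays, and levels of different probes are not compared. A gene was read from the probe with the highest mean over the 12 arrays. It was called higher or lower when limma's moderated test gave a Benjamini-Hochberg adjusted p under 0.05 over all 18185 probes and its probe was detected on at least 1 array of the groups compared. Of the 27 genes, 24 were detected on all 12 arrays. The median SD within a group was 0.121, the same as over all 10043 genes. The 4 group means of a gene spanned a median of 0.85 log2 units, against 0.99 over all genes.

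Against NS, glucose metabolism genes moved in both directions, and the largest differences were those of the transporter Slc2a3, the phosphofructokinase Pfkp and the aldolase Aldoc. In mNanog iPS 12 of the 27 genes were higher and 9 lower, where 38.8% of all genes were called higher and 38.3% lower. In hNanog iPS 13 were higher and 8 lower (40.5% and 37.3% of all genes), and in ES 13 were higher and 8 lower (40.4% and 36.9% of all genes). Higher calls thus made up 44.4%, 48.1% and 48.1% of the 27 genes and lower calls 33.3%, 29.6% and 29.6%, within 8 percentage points of the shares of all genes. Pdk2 and Pdk4 passed the detection rule only through the groups where they are high; without them 11, 12 and 12 of 25 genes were higher and 8, 7 and 7 lower. Differences over 2-fold were found for 6, 5 and 6 of the 27 genes in mNanog iPS, hNanog iPS and ES, which is 22.2%, 18.5% and 22.2%, against 39.8%, 40% and 40.2% of all genes. Each of these counts includes Pdk4, for which only at least 1.69-fold, 1.81-fold and 2.02-fold can be given. The hNanog iPS count also includes Pgk1 (-1.07), whose probes differ in direction. The median difference of the 27 genes was 0.25, 0.235 and 0.075, and over all genes it was 0.05, 0.08 and 0.075. The 3 comparisons share the NS arrays. In bulk RNA, fewer cells of a type and less RNA per cell cannot be told apart.

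**Figure D1:**
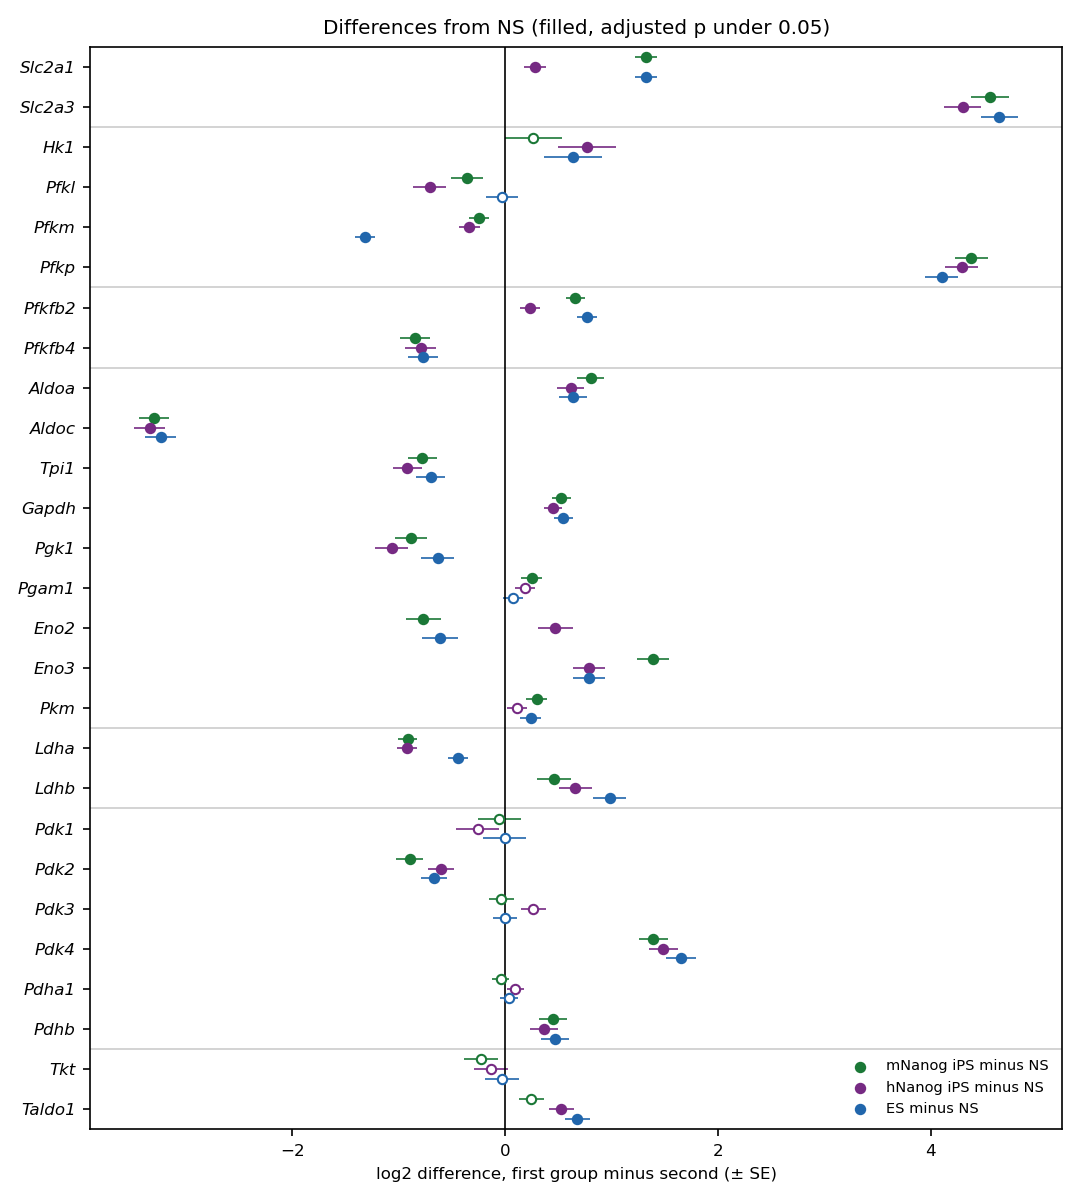
Log2 difference from NS (x axis, ± SE) for each of the 27 genes (y axis, in pathway order, with grey lines between steps) in mNanog iPS (green), hNanog iPS (purple) and ES (blue), with filled points for an adjusted p under 0.05. Slc2a3 and Pfkp lie beyond 4 and Aldoc below -3 in all 3 groups, while most other genes lie within 1 log2 unit of 0. The filled points of Pdk2 and Pdk4 mark differences that were bound to appear.

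The promoters of the genes with the largest differences are shown, chosen by the size of the change and not by its direction. In ES, Pfkp was higher than NS and Aldoc lower. They are the 250 bases before the start in RefSeq's annotation of GRCm38.p6, printed 5′ to 3′ on the gene's strand, for the 4 genes with the largest change from NS in ES or from ES in an iPS group that have an entry. Aldoc has 2 starts in the table and the first is shown. Capitals mark a match on either strand to ACGTG (the core of the hypoxia response element), CACGTG (an E-box, which holds ACGTG) or AAGGTCA (a site of estrogen-related receptors such as Esrrb).
Pfkp, chr13:6648772-6649021, minus strand: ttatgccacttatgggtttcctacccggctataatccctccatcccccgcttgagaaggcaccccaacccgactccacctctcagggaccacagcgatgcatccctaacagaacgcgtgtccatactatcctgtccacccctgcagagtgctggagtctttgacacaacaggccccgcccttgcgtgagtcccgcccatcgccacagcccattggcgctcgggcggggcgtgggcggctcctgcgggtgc
Aldoc, chr11:78322823-78323072, plus strand: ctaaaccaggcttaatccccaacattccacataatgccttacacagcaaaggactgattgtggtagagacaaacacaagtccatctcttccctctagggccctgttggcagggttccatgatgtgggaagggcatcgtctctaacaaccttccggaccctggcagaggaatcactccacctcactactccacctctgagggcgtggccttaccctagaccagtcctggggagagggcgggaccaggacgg
Pdk4, chr6:5496279-5496528, minus strand: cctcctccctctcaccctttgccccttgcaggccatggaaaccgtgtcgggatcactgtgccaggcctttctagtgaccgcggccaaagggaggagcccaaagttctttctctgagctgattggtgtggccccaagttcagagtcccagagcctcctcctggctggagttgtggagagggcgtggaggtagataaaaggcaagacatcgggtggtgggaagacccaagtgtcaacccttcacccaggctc
Slc2a1, chr4:119108495-119108744, plus strand: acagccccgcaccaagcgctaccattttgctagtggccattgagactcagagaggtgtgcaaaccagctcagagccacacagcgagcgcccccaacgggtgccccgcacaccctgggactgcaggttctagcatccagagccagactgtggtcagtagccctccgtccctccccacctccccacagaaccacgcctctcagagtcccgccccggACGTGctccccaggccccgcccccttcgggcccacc
The Slc2a1 window held ACGTG at 36 to 32 bases before the start, and the other windows held none of these letters. Over the measured genes with an entry, 11 of 26 (42.3%) held ACGTG, against 25.6% of all genes tested and 18.5% of all genes in the table. CACGTG was found in 4 of 26 (15.4%), against 10.2% and 6.86%, and AAGGTCA in 0 of 26, against 3.49% and 4.7%. These shares are a description with no test, a match is not a bound site, and no match says only that the letters are not in this window.

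Glucose uptake was read from both listed transporters. Slc2a3 encodes GLUT3, a high-affinity transporter best known from neurons and the early embryo. It read 13.47, 13.41 and 13.45 on the mNanog iPS arrays, 13.20, 13.17 and 13.18 on the hNanog iPS arrays, 13.55, 13.44 and 13.60 on the ES arrays, and 9.23, 8.34 and 9.08 on the NS arrays. Every pluripotent array lay more than 3 log2 units above every NS array. The fitted difference was 4.56, 4.30 and 4.65 (SE 0.175 each; adjusted p = 9.7e-11, 1.7e-10 and 8e-11), or 23.6-fold, 19.7-fold and 25-fold. NS replicate 2 was lowest, and the difference within the dimmer arrays was larger (5.10, 4.84 and 5.18) than within the brighter ones (4.29, 4.03 and 4.39).

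Slc2a1 encodes GLUT1, the transporter of most proliferating cells. It read 12.20, 12.03 and 12.05 on the mNanog iPS arrays, 11.13, 11.01 and 11.01 on the hNanog iPS arrays, 12.03, 12.15 and 12.09 on the ES arrays, and 10.93, 10.56 and 10.80 on the NS arrays. The mNanog iPS and ES arrays overlapped, and the hNanog iPS arrays lay about 1 log2 unit below both and close to NS. It was 2.51-fold higher than NS in mNanog iPS and in ES (differences of 1.33 and 1.325, SE 0.103; adjusted p = 9.6e-08 and 9.8e-08). In hNanog iPS the difference from NS was 0.28 (adjusted p = 0.024). That call was lost within the brighter arrays (0.20, adjusted p = 0.11) and within the dimmer ones (0.45, adjusted p = 0.06), without hNanog iPS replicate 1 and without NS replicate 2, and the value was -0.005 after cyclic loess normalization.

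The hexose steps were read from hexokinase 1, which phosphorylates glucose, and from the 3 phosphofructokinase isozymes, liver (Pfkl), muscle (Pfkm) and platelet (Pfkp), whose product commits the sugar to glycolysis. Pfkp read 10.99, 10.75 and 10.97 on the mNanog iPS arrays, 10.83, 10.76 and 10.84 on the hNanog iPS arrays, 10.68, 10.475 and 10.71 on the ES arrays, and 6.72, 6.09 and 6.74 on the NS arrays. No pluripotent array came within 3 log2 units of an NS array. The differences from NS were 4.385, 4.295 and 4.10 (SE 0.155; adjusted p = 4.3e-11, 5.3e-11 and 8e-11), or 20.9-fold, 19.6-fold and 17.2-fold. A second Pfkp probe gave 3.785, 3.77 and 3.62.

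Pfkm went the other way. It read 11.11, 11.02 and 10.93 on the mNanog iPS arrays, 11.01, 10.83 and 10.94 on the hNanog iPS arrays, 9.92, 9.89 and 10.04 on the ES arrays, and 11.24, 11.14 and 11.41 on the NS arrays. The ES arrays stood apart below all the others, and the iPS arrays lay just under NS without overlap. Pfkm was 2.49-fold lower in ES than in NS (-1.316, SE 0.0967; adjusted p = 5.9e-08). The smaller differences of mNanog iPS and hNanog iPS from NS were -0.245 and -0.34 (adjusted p = 0.036 and 0.0069), and both missed the threshold within the dimmer arrays (-0.08 and -0.20, adjusted p = 0.66 and 0.33). The first was also lost without mNanog iPS replicate 2 or 3 and without NS replicate 1 or 3.

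Pfkl read 11.24, 11.32 and 11.18 on the mNanog iPS arrays, 10.74, 10.98 and 10.96 on the hNanog iPS arrays, 11.42, 11.56 and 11.76 on the ES arrays, and 11.85, 11.22 and 11.74 on the NS arrays. NS replicate 2 fell among the pluripotent arrays, while NS replicates 1 and 3 lay above every pluripotent array except that ES replicate 3 (11.755) was just above NS replicate 3. Pfkl was lower than NS in hNanog iPS (-0.71, SE 0.153; adjusted p = 0.00098) and, at the edge of the threshold, in mNanog iPS (-0.36, adjusted p = 0.05). The mNanog iPS call was lost in 9 of the 12 fits that left out 1 array and with brightness as a block (-0.35, adjusted p = 0.061), and the value was 0.06 within the dimmer arrays. For ES the difference was -0.03, made up of -0.38 within the brighter arrays and 0.44 within the dimmer ones (adjusted p = 0.042 and 0.046). A dim second Pfkl probe gave no call in any comparison.

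Hk1 lay at 7.27 ± 0.497, 7.77 ± 0.283, 7.64 ± 0.216 and 6.999 ± 0.483 (SD, n = 3) from mNanog iPS through hNanog iPS and ES to NS. It was higher than NS in hNanog iPS and ES (0.77 and 0.64, SE 0.269; adjusted p = 0.02 and 0.047), and in mNanog iPS the difference was 0.27 (adjusted p = 0.38). With brightness as a block Hk1 was also called higher in mNanog iPS (0.47, adjusted p = 0.0077), as within the brighter arrays (0.48, adjusted p = 0.0081), and lower in mNanog iPS than in ES (-0.37, adjusted p = 0.043). Leaving out any of the ES arrays, NS replicate 2, mNanog iPS replicate 2 or hNanog iPS replicate 1 or 2 ended the ES call, and leaving out NS replicate 2 or hNanog iPS replicate 1 or 2 ended the hNanog iPS call. A second probe with a smaller spread was higher than NS in all 3 groups (0.43, 0.70 and 0.57, SE 0.129; adjusted p = 0.0091, 3e-04 and 0.0015).

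Fructose 2,6-bisphosphate, the strongest activator of phosphofructokinase, is made and removed by the bifunctional enzymes of the Pfkfb family. Pfkfb2, the isozyme best known from heart, read 8.25, 8.47 and 8.44 on the mNanog iPS arrays, 8.01, 7.87 and 7.999 on the hNanog iPS arrays, 8.43, 8.51 and 8.555 on the ES arrays, and 7.785, 7.77 and 7.62 on the NS arrays. The hNanog iPS arrays lay between the NS arrays and the other pluripotent arrays. The differences from NS were 0.66, 0.235 and 0.77 (SE 0.0911; adjusted p = 2.5e-05, 0.033 and 5.8e-06), and the hNanog iPS call was lost within the brighter and within the dimmer arrays (adjusted p = 0.079 and 0.3), after cyclic loess (0.02), and without hNanog iPS replicate 1 or 3 or NS replicate 3. Pfkfb4 was lower in all 3 groups, at 6.605 ± 0.276, 6.66 ± 0.156 and 6.68 ± 0.176 against 7.45 ± 0.110 in NS (SD, n = 3; adjusted p = 0.00015, 0.00025 and 0.00033).

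**Figure D2:**
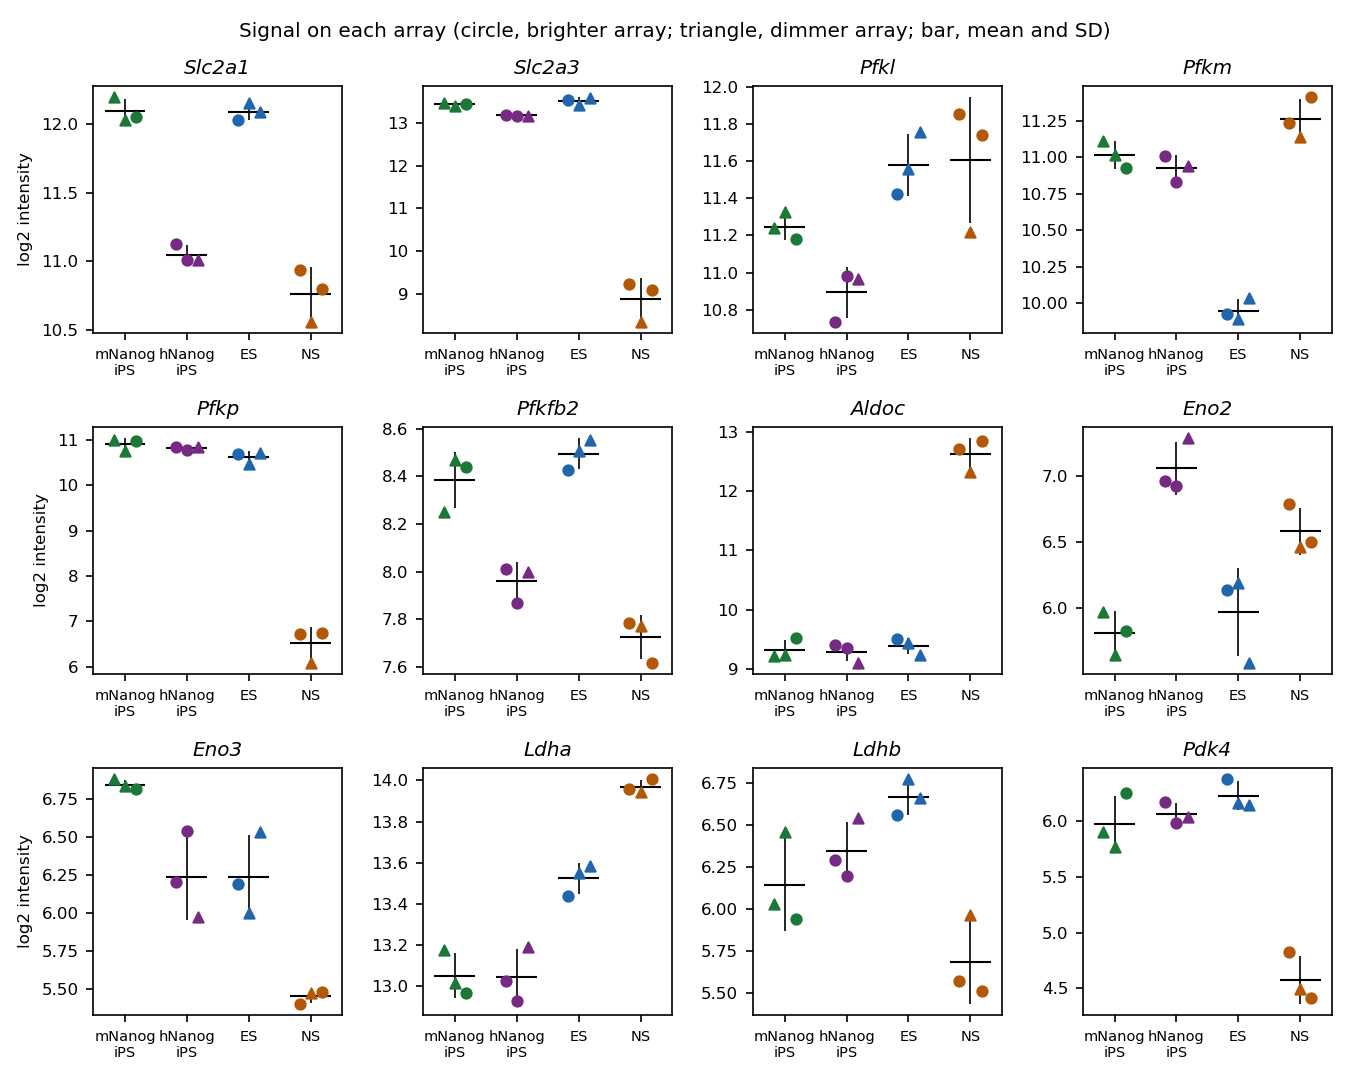
Log2 intensity (y axis) on each array of the 12 genes that are, in any comparison, among its 4 largest called differences without overlap of the groups, by group (x axis), with circles for brighter arrays, triangles for dimmer arrays and bars for the mean and SD of 3 arrays. Slc2a3, Pfkp, Aldoc and Pdk4 separate NS from the other groups, whereas Slc2a1, Pfkm, Eno2 and Pfkfb2 separate groups within the pluripotent cells. Pdk4 was detected on no NS array, so its difference from NS was bound to appear.

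At the triose and pyruvate steps 9 of 11 listed genes were measured, and the aldolases moved in opposite directions. Aldoc, the brain aldolase, read 9.22, 9.24 and 9.515 on the mNanog iPS arrays, 9.40, 9.355 and 9.10 on the hNanog iPS arrays, 9.50, 9.43 and 9.23 on the ES arrays, and 12.71, 12.33 and 12.84 on the NS arrays. Every NS array lay more than 2 log2 units above every other array, and the pluripotent groups overlapped. Aldoc was 9.86-fold, 10.1-fold and 9.43-fold lower than NS for mNanog iPS, hNanog iPS and ES (-3.30, -3.34 and -3.24, SE 0.143; adjusted p = 3.2e-10, 2.9e-10 and 3.8e-10). Aldoa, the aldolase of muscle and most dividing cells, was higher, at 13.29 ± 0.0668, 13.10 ± 0.117 and 13.13 ± 0.143 against 12.49 ± 0.264 in NS (SD, n = 3; adjusted p = 9.5e-05, 0.00082 and 0.00064).

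Gapdh, the dehydrogenase that makes the NADH of glycolysis and a common reference gene, was 1.44-fold, 1.37-fold and 1.46-fold higher than NS (0.53, 0.45 and 0.55, SE 0.0874; adjusted p = 0.00012, 0.00044 and 9e-05). The enzymes on either side of it read lower at their brightest probes. Tpi1, which interconverts the triose phosphates, differed from NS by -0.78, -0.92 and -0.70 (adjusted p = 2e-04, 4.8e-05 and 0.00048). Pgk1, which makes the first ATP of the pathway, differed by -0.88, -1.07 and -0.63 (adjusted p = 0.00019, 3.8e-05 and 0.0024). Other probes of both genes disagreed. One Tpi1 probe, ILMN_1231447, was higher than NS by 0.595, 0.62 and 0.94, while the third differed by -0.71, -0.77 and -0.55. The dim Pgk1 probe ILMN_2797973 was higher by 1.00, 1.13 and 0.685, each past the threshold. The direction for Tpi1 and Pgk1 is thus uncertain. Gapdh, Tpi1, Pgk1, Pgam1 and Aldoa have processed copies in the mouse genome, and whether a probe also reads such a copy was not tested.

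**Figure D3:**
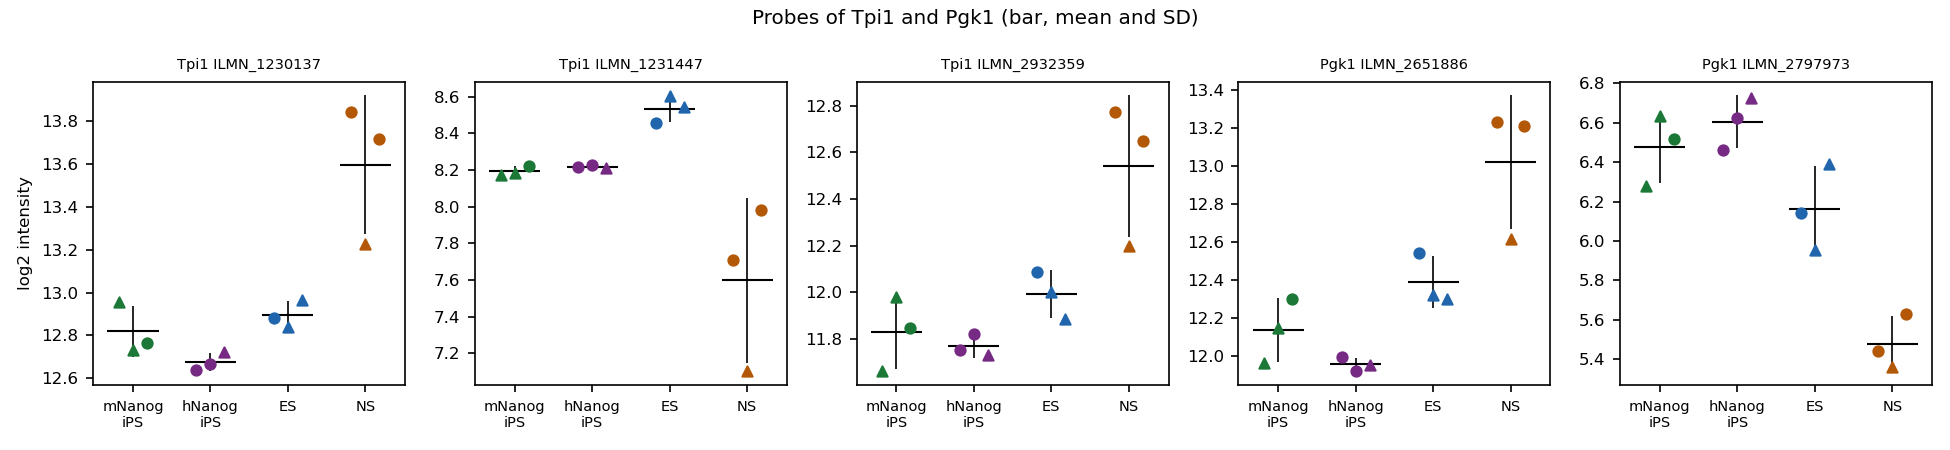
Log2 intensity (y axis) by group (x axis) on each array for the 3 Tpi1 and 2 Pgk1 probes, with circles for brighter arrays, triangles for dimmer ones and bars for the mean and SD. In Tpi1 ILMN_1231447 and Pgk1 ILMN_2797973 the NS arrays are the lowest, in the other probes the highest.

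Pgam1, phosphoglycerate mutase, lay at 10.345 ± 0.0682, 10.285 ± 0.0231, 10.17 ± 0.0938 and 10.10 ± 0.168 (SD, n = 3) from mNanog iPS through hNanog iPS and ES to NS. Only the difference of mNanog iPS from NS was called (0.25, adjusted p = 0.033), and it was 0.085 within the brighter arrays (adjusted p = 0.56), -0.10 under median scaling, and lost without mNanog iPS replicate 1 or 2 or NS replicate 2. Pkm, pyruvate kinase, lay at 12.78 ± 0.133, 12.60 ± 0.0681, 12.72 ± 0.0659 and 12.48 ± 0.114. It was called higher in mNanog iPS and ES (0.30 and 0.24; adjusted p = 0.013 and 0.037), was lost in mNanog iPS without mNanog iPS replicate 3 or NS replicate 2 and in ES without ES replicate 1 or 3 or NS replicate 2 and within the brighter arrays (0.24, adjusted p = 0.11), and turned to -0.04 in ES after cyclic loess.

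The enolases measured were those of neurons and muscle. Eno3 read 6.88, 6.84 and 6.82 on the mNanog iPS arrays, 6.20, 6.54 and 5.975 on the hNanog iPS arrays, 6.19, 5.997 and 6.535 on the ES arrays, and 5.40, 5.475 and 5.48 on the NS arrays. The mNanog iPS arrays were the highest, the hNanog iPS and ES arrays overlapped, and NS was lowest. The NS values lay little above the lowest detected signals of the NS arrays (5.14, 5.35 and 5.15). Differences from NS were 1.39, 0.79 and 0.79 (SE 0.149; adjusted p = 2.3e-06, 0.00037 and 0.00037).

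Eno2 had another order. It read 5.97, 5.64 and 5.83 on the mNanog iPS arrays, 6.96, 6.925 and 7.28 on the hNanog iPS arrays, 6.14, 6.19 and 5.59 on the ES arrays, and 6.79, 6.46 and 6.50 on the NS arrays, and was detected on 2 of 3 arrays in mNanog iPS and in ES. The hNanog iPS arrays lay above the NS arrays, and the mNanog iPS and ES arrays below them. Relative to NS, Eno2 was lower in mNanog iPS and ES (-0.77 and -0.61, SE 0.167; adjusted p = 0.0011 and 0.0051) and higher in hNanog iPS (0.47, adjusted p = 0.021). The hNanog iPS call was lost without hNanog iPS replicate 3, NS replicate 2 or NS replicate 3, and the dimmer arrays alone gave no call in any of the 3 groups.

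Lactate dehydrogenase is a tetramer of A and B subunits, of which A is usual in glycolytic tissue and B in heart. Ldha read 13.175, 13.01 and 12.97 on the mNanog iPS arrays, 13.02, 12.93 and 13.19 on the hNanog iPS arrays, 13.44, 13.55 and 13.59 on the ES arrays, and 13.96, 13.94 and 14.01 on the NS arrays. The iPS groups overlapped at the bottom, ES lay between, and NS was highest. Ldha was lower than NS by 1.89-fold, 1.9-fold and 1.36-fold for mNanog iPS, hNanog iPS and ES (-0.92, -0.92 and -0.445, SE 0.0931; adjusted p = 1.4e-06, 1.3e-06 and 0.00082).

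Ldhb read 6.03, 6.46 and 5.94 on the mNanog iPS arrays, 6.29, 6.19 and 6.54 on the hNanog iPS arrays, 6.56, 6.77 and 6.66 on the ES arrays, and 5.57, 5.96 and 5.51 on the NS arrays. The mNanog iPS and NS arrays overlapped, and the ES arrays were the highest. The differences from NS were 0.46, 0.66 and 0.98 (SE 0.157; adjusted p = 0.018, 0.0021 and 9.2e-05). The mNanog iPS call was lost without mNanog iPS replicate 2 or without NS replicate 1 or 3.

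Pyruvate dehydrogenase kinases switch off the complex that carries pyruvate into the mitochondrion, and 4 of them were measured. Pdk4, the kinase induced by fasting in other tissues, read 5.90, 5.765 and 6.25 on the mNanog iPS arrays, 6.17, 5.99 and 6.04 on the hNanog iPS arrays, 6.38, 6.16 and 6.15 on the ES arrays, and 4.82, 4.50 and 4.41 on the NS arrays. No NS array detected it and every other array did. It was at least 1.69-fold, 1.81-fold and 2.02-fold higher in mNanog iPS, hNanog iPS and ES, against the lowest signal among detected probes on the NS arrays. Pdk2 was detected on all 3 NS arrays, at 5.46 ± 0.0614, and on none of the 9 others, where it was not above background, so no fold is given. Since both genes passed the detection rule through 1 side of these comparisons only, a difference was bound to appear, and no p is given for them.

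The remaining genes of this step changed less. Pdk1, a kinase induced by hypoxia, had group means of 8.54 to 8.80, and its NS arrays spread from 8.165 on replicate 2 to 9.21. Without NS replicate 2 it was called lower than NS in all 3 groups, and within the dimmer arrays, where NS is replicate 2 alone, higher in mNanog iPS and ES (0.57 and 0.615; adjusted p = 0.014 and 0.011). Within the brighter arrays Pdk1 was called lower in mNanog iPS and hNanog iPS (-0.36 and -0.53; adjusted p = 0.043 and 0.0022). Pdk3 lay between 8.44 and 8.75 and Pdha1, the catalytic subunit of the complex, between 12.16 and 12.30, with no difference called. For Pdk3 in hNanog iPS against NS (0.27, adjusted p = 0.051), 9 of 26 alternative settings gave a call, among them brightness as a block (adjusted p = 0.012) and the fits without hNanog iPS replicate 3, ES replicate 1 or NS replicate 1. Pdhb, the beta subunit, was higher than NS by 0.45, 0.37 and 0.47 (SE 0.13; adjusted p = 0.0069, 0.022 and 0.0056), as were its other probes. The hNanog iPS call was lost without hNanog iPS replicate 2 or without NS replicate 1 or 2, and the mNanog iPS call of Pdhb within the brighter arrays (0.30, adjusted p = 0.097).

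Of the members from the pentose phosphate pathway, only Tkt and Taldo1, of the reversible branch, were measured. Tkt, transketolase, lay at 11.35 ± 0.254, 11.445 ± 0.274, 11.55 ± 0.160 and 11.58 ± 0.155 (SD, n = 3) from mNanog iPS through hNanog iPS and ES to NS, and no difference was called. Tkt was called lower in mNanog iPS than in NS with brightness as a block (-0.34, adjusted p = 0.0081) and within the brighter arrays (-0.42, adjusted p = 0.013). Its dim further probes, detected on at most 2 of 3 arrays of any pluripotent group, were called lower than NS. Taldo1, transaldolase, lay at 11.77 ± 0.233, 12.06 ± 0.0906, 12.21 ± 0.121 and 11.53 ± 0.0884, and was higher than NS in hNanog iPS and ES (0.53 and 0.68, SE 0.119; adjusted p = 0.0013 and 0.00019). In mNanog iPS its difference was 0.25 (adjusted p = 0.078), which passed without mNanog iPS replicate 3.

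How far the calls against NS depended on the processing differed between genes. Of 21 calls in each comparison, 10 in mNanog iPS, 7 in hNanog iPS and 9 in ES held in all 26 alternative settings. Slc2a3, Pfkp, Pfkfb4 and Aldoc held in all of them in each comparison. The 10, 7 and 9 also include Pdk4 in each comparison and Pdk2 in mNanog iPS and ES, for which a difference was bound to appear. Within the dimmer arrays, the calls of Tpi1 and Eno2 were lost in every group and those of Pfkm and Ldhb in both iPS groups. Pkm was lost there in mNanog iPS and ES, Pgk1 and Ldha in ES, and Slc2a1, Pfkl, Pfkfb2, Eno3, Pdk2 and Pdhb in hNanog iPS. Scaling each array by its median in place of quantile normalization moved the median of all probes against NS to -0.29, -0.01 and -0.19 from 0.07, 0.12 and 0.11. The share of higher calls over all probes then was 32.1%, 45% and 35.1%, against 51.8%, 53.7% and 53.8%, and the members split into 5 higher and 7 lower for mNanog iPS, 4 and 4 for hNanog iPS and 5 each for ES.

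Among the pluripotent groups fewer glucose metabolism genes were called than against NS, as was also so for all genes. In mNanog iPS against ES 2 of the 27 genes were higher and 3 lower, where 17.3% and 18.4% of all genes were called. In hNanog iPS against ES 2 were higher and 4 lower (14.8% and 13.8% of all genes). Between the iPS groups 1 gene was higher in hNanog iPS and 3 were lower (7.16% and 8.55% of all genes). Called differences over 2-fold were found for 1, 2 and 2 of the 27 genes in these comparisons. That is 3.7%, 7.41% and 7.41%, against 6.99%, 4.76% and 2.92% of all genes. The median difference of the 27 genes was -0.08, -0.10 and -0.08 in these comparisons, against -0.03, -0.01 and 0.02 over all genes. Each group enters a pair of these comparisons, so they are not independent of each other.

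**Figure D4:**
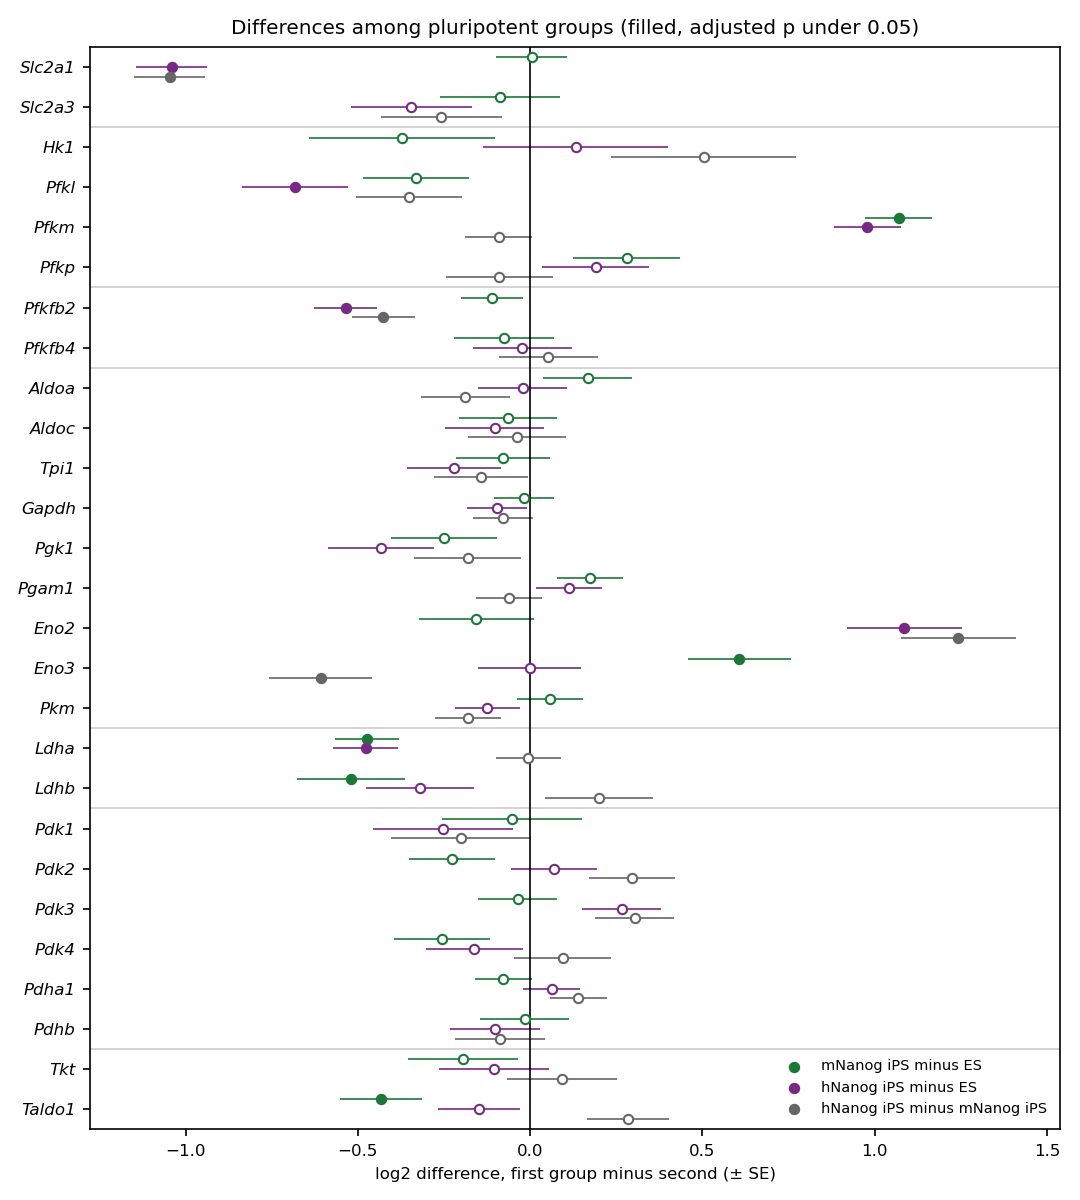
Log2 difference (x axis, ± SE) of each of the 27 genes (y axis, in pathway order) for mNanog iPS minus ES (green), hNanog iPS minus ES (purple) and hNanog iPS minus mNanog iPS (grey), with filled points for an adjusted p under 0.05. Pfkm lies near 1 in both iPS groups against ES, Slc2a1 near -1 in both comparisons of hNanog iPS, and Eno2 above 1 in the same comparisons.

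Pfkm and Ldha were called against ES in both iPS groups. On the arrays listed above, all 6 iPS arrays lay above every ES array for Pfkm and below every ES array for Ldha. The iPS arrays also lay apart from the ES arrays for Pfkp, Pgam1, Pfkl and Ldhb, which were not called in both iPS groups. Such separation was not counted over all genes. Pfkm was higher than ES by 1.07 in mNanog iPS and 0.98 in hNanog iPS (SE 0.0967; adjusted p = 3.6e-06 and 1.3e-05), or 2.1-fold and 1.97-fold. Its other probes were also called higher, by 0.43 and 0.55 at one and by 1.24 and 1.20 at the other. Ldha was lower than ES by 1.39-fold in each (-0.47 and -0.48, SE 0.0931; adjusted p = 0.0019 and 0.0023). Within the brighter arrays Ldha differed by -0.47 and -0.46 (adjusted p = 0.048 and 0.033), and within the dimmer ones by -0.47 and -0.38 (adjusted p = 0.039 and 0.17). Under median scaling the Ldha calls were lost, as was that of Pfkm in mNanog iPS (0.98, adjusted p = 0.054).

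The other calls against ES passed in 1 iPS group each. In mNanog iPS, Eno3 was higher than ES (0.61, adjusted p = 0.0077), and Taldo1 and Ldhb were lower (-0.43 and -0.52; adjusted p = 0.014 and 0.023). The Ldhb call was lost without mNanog iPS replicate 1 or 3 or ES replicate 2 or 3, and the Taldo1 call without mNanog iPS replicate 3 or ES replicate 2. In hNanog iPS, Slc2a1 was lower than ES by 2.06-fold (-1.04, SE 0.103; adjusted p = 1.2e-05), Pfkl by 1.6-fold (-0.68, adjusted p = 0.0056) and Pfkfb2 by 1.45-fold (-0.54, adjusted p = 0.00089), while Eno2 was 2.12-fold higher (1.09, SE 0.167; adjusted p = 0.00043). Within the dimmer arrays the calls of Eno3 (0.59, adjusted p = 0.085), Ldhb (-0.47, 0.11), Taldo1 (-0.37, 0.081), Pfkl (-0.69, 0.053) and Pfkfb2 (-0.53, 0.097) missed the threshold. Pgk1 lay at -0.43 in hNanog iPS (adjusted p = 0.058), which passed with brightness as a block (-0.52, adjusted p = 0.0049) and within the brighter arrays (-0.59, adjusted p = 0.011), and its dim probe lay at 0.44 (adjusted p = 0.028).

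The direct comparison of the iPS groups tested which of these differed between them. Eno2 was 2.37-fold higher in hNanog iPS than in mNanog iPS (1.24, SE 0.167; adjusted p = 0.00028). Slc2a1 was 2.06-fold lower (-1.05, SE 0.103; adjusted p = 1.8e-05), Eno3 1.52-fold lower (-0.61, SE 0.149; adjusted p = 0.017) and Pfkfb2 1.34-fold lower (-0.43, SE 0.0911; adjusted p = 0.0078). For each of these genes the 3 hNanog iPS arrays did not overlap the 3 mNanog iPS arrays. Nor did they overlap for Slc2a3, Pfkl, Tpi1, Pkm, Pdk1, Pdk2, Pdk3 and Pdha1, none of which was called. The share of all genes without overlap was not counted. Taldo1 (0.28, adjusted p = 0.15), Ldhb (0.20, 0.47) and Pfkl (-0.35, 0.16), each called against ES in 1 iPS group, were not called between the iPS groups. Taldo1 was called there with brightness as a block (0.35, adjusted p = 0.017) and within the brighter arrays (0.49, adjusted p = 0.043), but not within the dimmer ones (0.25, adjusted p = 0.44). The Eno3 call was lost without mNanog iPS replicate 1, hNanog iPS replicate 1 or hNanog iPS replicate 3. Within the brighter and the dimmer arrays, Slc2a1 differed by -0.99 and -1.11 (adjusted p = 0.0018 and 0.022), Eno2 by 1.11 and 1.48 (0.0018 and 0.067), Eno3 by -0.45 and -0.885 (0.12 and 0.14) and Pfkfb2 by -0.50 and -0.36 (0.055 and 0.29). Under median scaling the Eno2 call held (1.42, adjusted p = 0.0058) and those of Slc2a1 (-0.76, 0.37), Eno3 (-0.36, 0.64) and Pfkfb2 (-0.145, 0.83) were lost. That scaling moved the median of all probes to 0.25 from 0.03 in this comparison and to 0.155 from -0.004 in hNanog iPS against ES. The share of higher calls over all probes became 63.8% in mNanog iPS against ES and 77.5% in hNanog iPS against ES, from 48.2% and 52.2%, and after cyclic loess it was 36% between the iPS groups, from 47.2%.

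Markers of fibroblasts were read beside these comparisons. Of 8 listed, 4 were measured (Col1a1, Thy1, Dcn and Fbln2), and all 4 were detected on every mNanog iPS array and 1 of the 4 on every array of hNanog iPS and of ES. The log2 of their summed signal ranged from 9.70 to 10.04 in mNanog iPS, 7.11 to 7.19 in hNanog iPS, 7.22 to 7.45 in ES and 13.35 to 13.53 in NS, where Col1a1 and Dcn were not detected on any array. The part of such cells in the differences of mNanog iPS was not tested.

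The genes around the pathway were counted by lists chosen by function, against the shares of all genes called higher than NS (38.8%, 40.5% and 40.4%) and lower (38.3%, 37.3% and 36.9%) in mNanog iPS, hNanog iPS and ES. The counts include genes that passed the detection rule through 1 side of a comparison only, for which a difference was bound to appear. Beside the pathway, 11, 12 and 12 of 17 measured genes of the TCA cycle list were lower than NS in these groups, where 38.3%, 37.3% and 36.9% of all genes were, while 1, 1 and 0 were higher. The cycle oxidizes the acetyl groups made from pyruvate in the mitochondrion, and 3 genes of the list (Aco1, Idh1 and Mdh1) encode isozymes outside it. Of the other 14, a count added after the values were seen, 10 were lower in each group. The median difference of all 17 was -0.54, -0.455 and -0.49. The lowest differences in ES were those of Cs (citrate synthase, -1.14), Dlst (-0.89) and the cytosolic Idh1 (-0.82), and in mNanog iPS those of Idh3a (-1.47), Suclg2 (-1.39) and Cs (-0.99). Among 6 measured genes of pyruvate entry and lactate transport, Dlat, the acetyltransferase core of pyruvate dehydrogenase, was lower than NS (-1.32, -1.15 and -1.02), and Slc16a6 and Pdp2, the phosphatase that reverses the Pdk reaction, were higher (Pdp2 by 1.43, 0.83 and 0.34).

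Of 9 measured side and alternative enzymes of glycolysis 6, 6 and 5 were higher than NS (all genes 38.8%, 40.5% and 40.4%) and 2, 2 and 2 lower. Both lower genes, Slc2a6 and Slc2a9, were detected on no pluripotent array, and the higher genes Ldhc and Tigar on no NS array. For these genes a difference was bound to appear. Ldhc, a lactate dehydrogenase best known from testis, was detected on all pluripotent arrays and on no NS array. Its signal exceeded NS at least 2.85-fold in mNanog iPS, at least 4.32-fold in hNanog iPS and at least 10.6-fold in ES, and it was lower than ES in mNanog iPS and hNanog iPS (-1.89 and -1.29; adjusted p = 5.6e-08 and 2.7e-06). Tigar, which removes fructose 2,6-bisphosphate, was higher by at least 3.28-fold, 3.6-fold and 4.68-fold, while Galm, which interconverts the anomers of hexoses, was higher by 2.28, 2.88 and 2.19. Slc2a6, a hexose transporter, was lower by at least 4.8-fold, 5.14-fold and 4.89-fold.

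In the list of gluconeogenesis and glycogen, 9, 8 and 7 of 14 measured genes were lower than NS (all genes 38.3%, 37.3% and 36.9%) and 3, 2 and 3 higher. Pgm1, which links glucose 6-phosphate to glycogen, differed by -1.80, -2.23 and -2.40. Fbp2, which opposes phosphofructokinase and was detected on no NS array, was higher by at least 2.7-fold, 2.99-fold and 2.83-fold. Of 6 measured genes of pentose phosphate and ribose metabolism outside the members, 2, 3 and 3 were higher and 2, 1 and 2 lower than NS. Pgls, the lactonase that follows glucose 6-phosphate dehydrogenase, differed from NS by -1.43, -1.39 and -1.54, and H6pd, the dehydrogenase of the endoplasmic reticulum, by 0.95, 1.08 and 1.77.

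**Figure D5:**
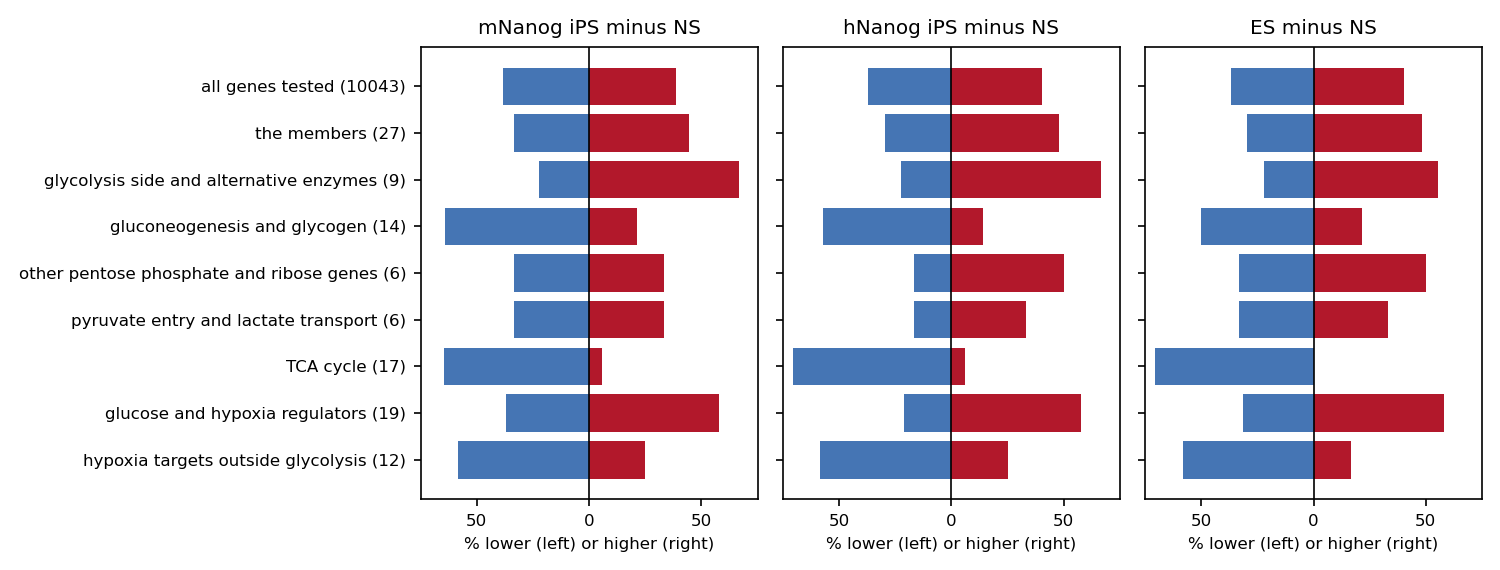
Share of the measured genes of each list (number in brackets) called lower (left, blue) or higher (right, red) than NS, on an axis in percent, for mNanog iPS, hNanog iPS and ES. All genes tested have slightly more higher than lower calls (40.4% and 36.9% in ES). The 27 members (13 higher and 8 lower in ES) lie within 8 percentage points of the shares of all genes. The TCA cycle, glycogen and hypoxia target lists have more lower calls.

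Regulators of glucose use and of the response to low oxygen were counted next, with 11, 11 and 11 of 19 measured genes higher than NS (all genes 38.8%, 40.5% and 40.4%) and 7, 4 and 6 lower (all genes 38.3%, 37.3% and 36.9%), and medians of 0.72, 0.72 and 0.54. Esrrb, a receptor of pluripotent cells that can activate metabolic genes, was higher by 7.47, 7.45 and 7.44, and Txnip, an inhibitor of glucose uptake, by 1.10, 1.01 and 1.205. Egln3, an oxygen-dependent hydroxylase itself induced by hypoxia, was lower by at least 11.8-fold in mNanog iPS and at least 12.1-fold in ES, while its difference for hNanog iPS was -3.10. Of 12 measured hypoxia targets outside glycolysis, 7 were lower than NS in each group (all genes 38.3%, 37.3% and 36.9%) and 3, 3 and 2 higher, with medians of -1.09, -1.405 and -0.925. Vegfa, the vessel growth factor, differed by -3.05, -2.51 and -3.06, and Kdm3a, a histone demethylase, was higher by 1.61, 1.285 and 1.45. Each of these lists was chosen with earlier results of the series known, and the sources used here do not give the oxygen level of the cultures.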

How the data were processed

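Per the labels' protocols, RNA was extracted with RNeasy, amplified with TotalPrep-96 and labelled with biotin. The deposited table per probe and array gives an intensity (average signal) and a detection p-value; the sources used here give neither the scanner software nor any background step of the authors. A second deposited table holds the authors' processed values, named log2 here although its log base and normalization are not stated, and served as an alternative. In R 4.3.3 with limma 3.58.1, intensities were background-corrected (nec with detection p-values, offset 16), log2-transformed and quantile-normalized. Of 45281 probes, 18185 were detected (p under 0.01) on 3 or more arrays and kept. Group means were fitted on all 12 arrays (lmFit, eBayes), with Benjamini-Hochberg adjustment at 0.05, and the fit was checked on simulated data. Gene names came from the platform annotation, in which 8 probes not assigned to 1 gene were named for none. Of the 18185 kept probes, 15676 carried 1 gene symbol. Between 30.2% and 37% of probes were detected on an array, and the number of arrays limits the precision.

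The members and the lists were chosen with earlier results of these data known. All measured members are named. Values on all arrays are given for those among the 4 largest called differences without overlap in a comparison. Of each wider list at most 3 genes in each direction and comparison are named.

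Same replicate numbers in different groups were not treated as pairs in the main fit. Deviations from group means of same-numbered arrays correlated at -0.505 to 0.375, with a median of -0.166 over 18 pairs. The median was 0.0103 over 36 pairs with other numbers. Deviations also followed brightness, so these values cannot exclude a pairing. Replicates of a group correlated at 0.989 to 0.996. Alternatives changed the background, scaling, filter, variance model, samples and blocks; a slide block was not run, since the sources used here do not give the slide.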

Additional observations from a re-analysis of the deposited data

Results flagged for a closer look

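The changes of the iPS groups from ES differed from each other for 4 genes, as tested by the direct comparison of hNanog iPS with mNanog iPS with limma over all probes. Slc2a1 differed by -1.046 (adjusted p = 1.8e-05), lying at the ES level in mNanog iPS and below it in hNanog iPS. Eno2 differed by 1.243 (adjusted p = 0.00028), above ES in hNanog iPS alone. Eno3 differed by -0.608 (adjusted p = 0.017), above ES in mNanog iPS alone. Pfkfb2 differed by -0.426 (adjusted p = 0.0078), below ES in hNanog iPS alone. The form of Nanog and the clone cannot be told apart in these differences.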

How the results depend on the processing

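The 4 largest called differences without overlap in each comparison, 24 in all, were recomputed under 26 settings. Of these 624 values, 599 kept direction and call, 25 kept the direction and missed the threshold, and 0 reversed. The 24 differences were picked for size from these same data, and they include Pdk4 against NS, whose difference was bound to appear. Among the smaller called differences, the sign turned for Slc2a1 in hNanog iPS (-0.005) and Pkm in ES (-0.04) after cyclic loess, Pgam1 in mNanog iPS (-0.10) under median scaling and Pfkl in mNanog iPS (0.06) within the dimmer arrays, all against NS. Under median scaling the counts of called members were 12, 8 and 10 against NS in mNanog iPS, hNanog iPS and ES, 0 in mNanog iPS against ES (2 at an unadjusted p under 0.05), 2 in hNanog iPS against ES and 1 between the iPS groups. It left 1076, 906 and 391 of 5883, 4672 and 2467 called probes in the last 3 comparisons. The dimmer arrays alone gave 11 called members in hNanog iPS against NS, 2 and 3 in mNanog iPS and hNanog iPS against ES and 1 between the iPS groups, and 3841, 1446 and 536 probes in the last 3 comparisons; the brighter arrays alone gave 3859 probes in mNanog iPS against ES. Both use fewer arrays, and for median scaling the cause was not tested. Brightness as a block gave 22, 22, 21, 6, 7 and 5 called members, in the order of the replicate block below. Array weights gave 7 called members and 4144 probes between the iPS groups. Leaving out 1 array gave 17 to 21, 18 to 22 and 19 to 21 called members against NS, 3 (without ES replicate 2) to 7 and 6 to 8 against ES, and 3 to 6 between the iPS groups. With the replicate block 19, 20, 20, 5, 6 and 4 members were called in the order mNanog iPS, hNanog iPS and ES against NS, mNanog iPS and hNanog iPS against ES, and hNanog iPS against mNanog iPS, against 21, 21, 21, 5, 6 and 4 without it, and 13347, 13466, 13392, 5452, 4220 and 2062 probes. Signal over background limits Pdk2, Pdk4, Eno2, Eno3 and Ldhb, which lie near the detection limit in some groups.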
